A study of Homo sapiens with 6 samples.

Results

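The inhibitors of differentiation (ID1 to ID4) and the SMADs and receptors of bone morphogenetic protein (BMP) signalling were followed in U2OS cells, an established human osteosarcoma line, after a microRNA was raised in them. The genes were ID1, ID2, ID3, ID4, SMAD1, SMAD5, SMAD6, SMAD9, BMPR1A and BMPR2, taken by symbol from the array's annotation. Of these 10 genes, 9 had a probe that the annotation gives to them alone, of 20046 such genes on the array, and they had 16 such probes in all. No probe of BMPR1A was among those used here. The family was chosen by gene symbol, with no threshold on a value, but with the signal differences of this same contrast already known, so its calls are a description and not independent evidence. Of the 3 arrays in each group, those labelled miR-542-3p mimic came from cells given a synthetic RNA that acts like the mature microRNA, and those labelled miR-negative from cells given a negative control mimic. RNA was isolated 48 h after transfection in both groups, which share the cell line and the transfection itself. Samples carry replicate numbers, but nothing says that they came from separate cultures, so the p-values rest on a spread that may be technical.

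BMPs are secreted ligands that bring together type I and type II receptor kinases at the cell surface. The type II receptor phosphorylates the type I receptor, which phosphorylates SMAD1, SMAD5 and SMAD9, and these enter the nucleus with SMAD4 to switch on genes, among which ID1, ID2 and ID3 are classic early targets. ID proteins have a helix-loop-helix but no DNA-binding region, so they pair with E proteins and other helix-loop-helix factors and keep them off DNA, which is known to hold back differentiation. SMAD6, itself a BMP target, acts back on the receptors as an inhibitor. BMPs are known for their part in bone formation, and ID proteins for their part in keeping osteosarcoma cells undifferentiated.

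The RNA of 3 ID genes was higher with the mimic and that of BMPR2 was lower, so the windows around their gene starts are shown, to let the sequences of genes that moved the same way be set beside that of the gene that moved the other way. The sequences are RefSeq's promoter windows on GRCh38.p14, from 250 bases before to 50 bases after the gene start, and all 10 genes were matched by symbol. That of ID1 lies at chr20:31605039-31605338 on the plus strand, that of ID2 at chr2:8681806-8682105 on the plus strand, that of ID3 at chr1:23559452-23559751 on the minus strand and that of BMPR2 at chr2:202376077-202376376 on the plus strand. Capitals mark matches, on either strand, to GGCGCC (a BMP SMAD element), CAGAC (the SMAD box), CANNTG (the E-box that E proteins bind), CCAAT (the CCAAT box) or TATAAA (the TATA box), each read 5′ to 3′.
ID1: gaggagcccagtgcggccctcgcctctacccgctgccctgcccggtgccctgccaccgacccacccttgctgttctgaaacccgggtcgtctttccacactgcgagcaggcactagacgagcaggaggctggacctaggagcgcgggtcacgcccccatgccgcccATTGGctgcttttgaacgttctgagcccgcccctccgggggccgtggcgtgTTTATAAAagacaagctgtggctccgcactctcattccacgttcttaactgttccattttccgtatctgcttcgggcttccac
ID2: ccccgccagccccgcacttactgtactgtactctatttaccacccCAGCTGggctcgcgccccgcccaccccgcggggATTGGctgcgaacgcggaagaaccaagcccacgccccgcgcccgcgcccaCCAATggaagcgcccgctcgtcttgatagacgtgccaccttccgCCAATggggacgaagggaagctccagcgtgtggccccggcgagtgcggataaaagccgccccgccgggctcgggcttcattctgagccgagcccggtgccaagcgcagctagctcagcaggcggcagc
ID3: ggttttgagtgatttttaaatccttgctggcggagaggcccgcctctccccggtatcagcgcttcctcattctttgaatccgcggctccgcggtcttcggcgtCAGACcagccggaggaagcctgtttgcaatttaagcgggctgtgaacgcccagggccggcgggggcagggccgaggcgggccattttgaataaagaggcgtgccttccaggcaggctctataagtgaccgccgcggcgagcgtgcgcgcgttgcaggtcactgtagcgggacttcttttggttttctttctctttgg
BMPR2: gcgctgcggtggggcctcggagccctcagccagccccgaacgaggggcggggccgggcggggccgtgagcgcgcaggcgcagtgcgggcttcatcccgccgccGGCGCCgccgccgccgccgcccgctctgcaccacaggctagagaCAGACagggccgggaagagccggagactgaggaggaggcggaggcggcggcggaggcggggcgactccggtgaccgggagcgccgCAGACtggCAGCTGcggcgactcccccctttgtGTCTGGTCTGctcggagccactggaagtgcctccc
The ID1 window held TATAAA 31 bases before the gene start, overlapping a match on the other strand, and CCAAT on the minus strand 84 bases before it. The ID2 window held 3 matches to CCAAT, 78, 122 and 172 bases before the start, and an E-box 205 bases before it. The ID3 window held only a SMAD box, 147 bases before the start. GGCGCC was in none of these 3 windows, and of the 4 windows shown BMPR2's alone held it, 147 bases before the start, together with 4 matches to CAGAC and an E-box. Among the windows not shown, some of SMAD1 and that of SMAD5, genes that were not called, held GGCGCC as well. GC bases made up 76.7% of the BMPR2 window and 62.7%, 69% and 59.7% of those of ID1, ID2 and ID3, against a median of 58.7% over all windows. Over all 35116 RefSeq windows of 300 bases, GGCGCC was found in 19.2%, CAGAC in 45.3%, CANNTG in 68.7%, CCAAT in 34.6% and TATAAA in 11.5%. No motif was shared by the ID1, ID2 and ID3 windows. These matches are letters in a short window, and elements farther from the start were not searched.

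The arrays had median intensities between 132.2 and 151.4, and between 17848 and 18652 of their 47323 probes were detected, that is, had a detection p under 0.05. The number of arrays limits the precision. BIRC5, a reported target of this microRNA, was 9.69-fold lower on the arrays labelled as mimic (limma adjusted p = 7.75e-05). Of 11 mesenchymal and osteoblast markers, IBSP was detected on no array, 2 were called higher (CDH2 by 1.13 and RUNX2 by 0.97 on the log2 scale) and 1 lower (SPARC, -0.48), and the list's summed linear signal was 25300 to 29000 in the control and 26500 to 27600 in the mimic group. Of 8 epithelial markers, CDH1, CLDN4, CLDN7 and KRT5 were detected on no array, 1 was called lower and none higher, and the summed signal was 415 to 518 in the control and 282 to 335 in the mimic group. The called gene, EPCAM, changed by -1.32 on the log2 scale. Of 7 endothelial markers, CDH5, CLDN5, ESAM and KDR were on no array, and the sums were 200 to 281 and 198 to 234. VWF was at least 1.54-fold lower, but it was detected on control arrays alone and so could enter the test only by being lower with the mimic. TEK, the other endothelial marker tested, went the other way, by 0.45 on the log2 scale, and was not called (limma adjusted p = 0.192). Of 7 leukocyte markers with a probe, CD3E and LYZ were on no array, none was called, and the sums were 315 to 411 and 374 to 475. The part of these markers in the results below was not tested. In cultures measured in bulk, fewer cells of a kind and less RNA per cell cannot be told apart.

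With the mimic, ID1, ID2 and ID3 were higher, BMPR2 was lower, and SMAD1, SMAD5 and SMAD6 did not pass the test. ID4 and SMAD9 were detected on no array of either group. Of the 7 genes tested, 4 were therefore called, or 57.1%, where 26.4% of all 10734 genes tested were called (limma, adjusted p under 0.05 over all rows). In a single direction, 3 of the 7 were called higher against 12.7% of all genes, and 1 was called lower against 13.7%. The arrays of both groups did not overlap for 5 of the 7, SMAD6 among them, where the same held for 45.0% of all genes. The median change of the 7 was 0.54 on the log2 scale and that of all genes was 0.02. Since this contrast was known when the family was named, nothing is read from these shares. All 7 genes tested were detected in both groups, so none entered the test through 1 group alone.

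**Figure D1:**
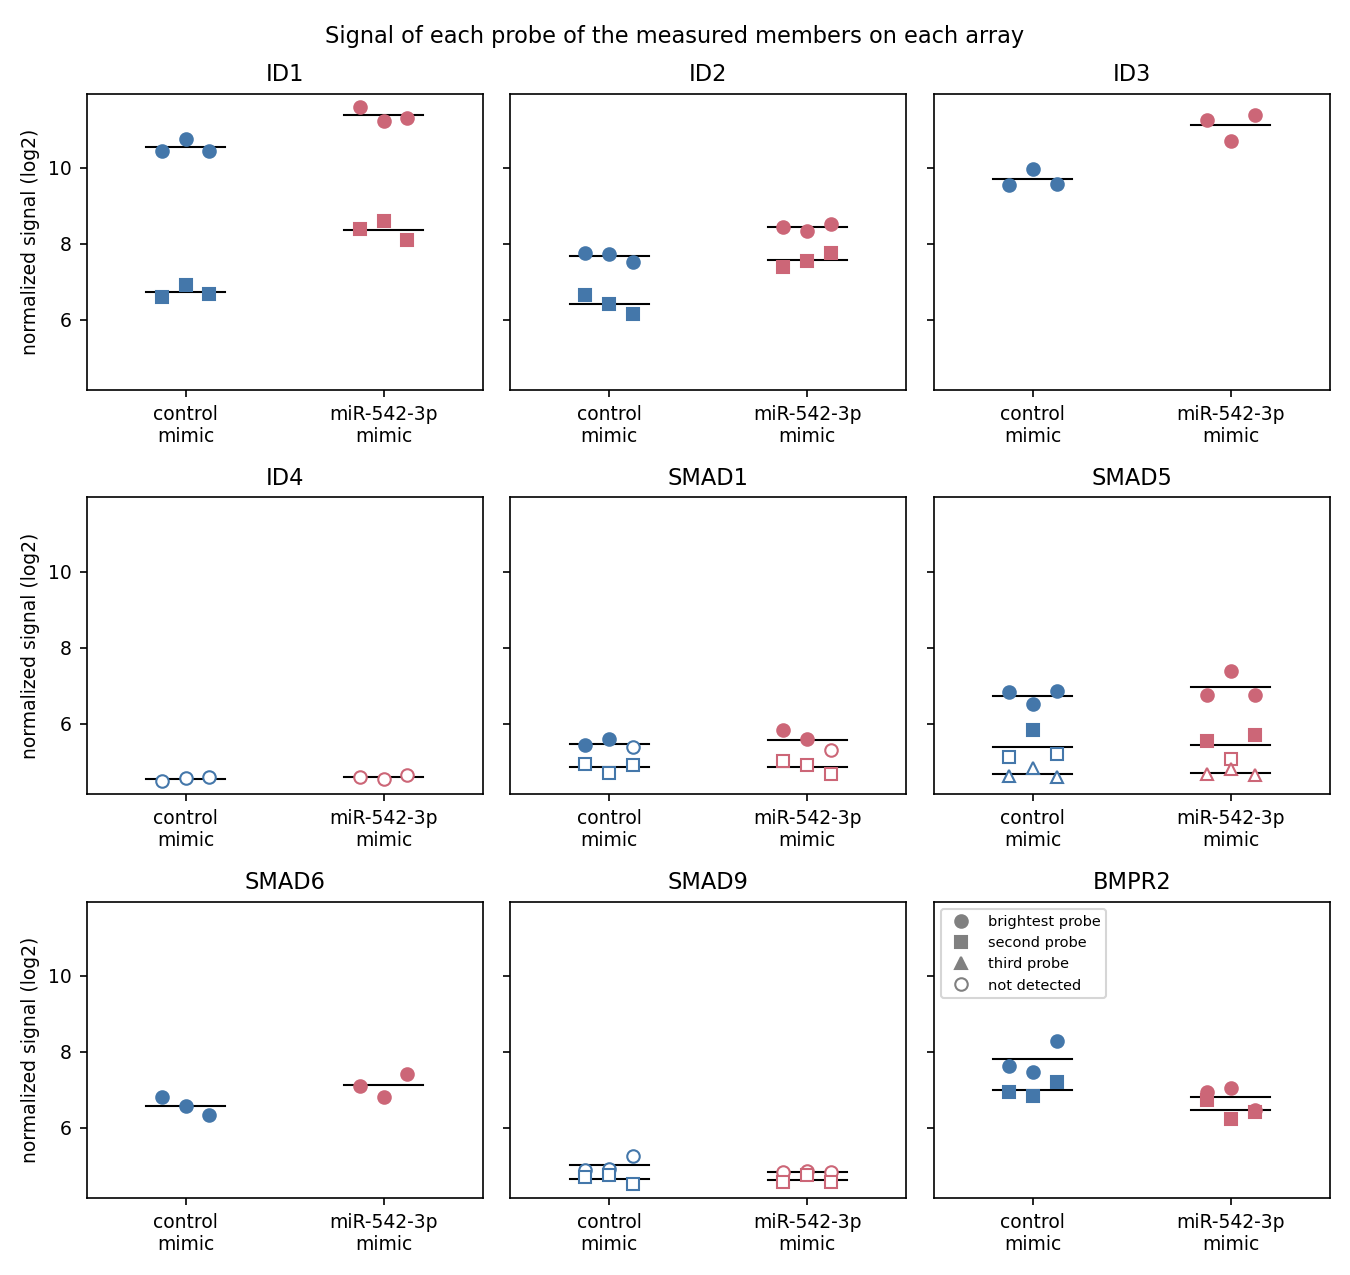
Normalized log2 signal (vertical axis) of each probe of the 9 genes with probes on the 3 control mimic arrays (blue) and the 3 miR-542-3p mimic arrays (red); symbols are probes of a gene, open symbols are arrays where the probe was not detected, and lines are means. The mimic arrays lie above all control arrays for both ID1 probes, both ID2 probes and ID3, below them for both BMPR2 probes, and at the floor in both groups for ID4 and SMAD9; heights of different probes are not comparable.

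ID1, the ID gene most widely used as a readout of BMP signalling, has 2 probes. On the brighter probe the normalized log2 signal was 10.43, 10.76 and 10.45 on the control arrays and 11.60, 11.24 and 11.32 on the mimic arrays. The lowest mimic array lay above the highest control array. The scanner's own intensities showed the same order without any processing, at 1540, 1812 and 1598 in the control and 3321, 2455 and 2552 in the mimic group. The change in ID1, mimic minus control, was 0.84 ± 0.15 (SE, n = 3 per group) on the log2 scale, a 1.79-fold higher signal (limma adjusted p = 0.0062). The dimmer ID1 probe read 6.61, 6.92 and 6.68 on the control arrays and 8.38, 8.61 and 8.11 on the mimic arrays. The groups were apart here as well. In the fit with each probe as its own row, where 23.6% of 18113 probes were called, this probe changed by 1.63 ± 0.17, or 3.10-fold (limma adjusted p = 0.00045). The distance between both ID1 probes depended on the background step, since the dimmer probe changed by 0.79 more than the brighter one with the main correction and by 0.22 more with none.

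ID2, which is known to bind the retinoblastoma protein as well as E proteins, also has 2 probes. The brighter read 7.76, 7.73 and 7.51 on the control arrays and 8.44, 8.35 and 8.53 on the mimic arrays. No control array reached the lowest mimic array, and this was the tightest of the ID measurements, with an SD of 0.14 in the control and 0.09 in the mimic group. The change was 0.78 ± 0.13, or 1.71-fold (limma adjusted p = 0.00407). The dimmer ID2 probe read 6.66, 6.42 and 6.15 against 7.40, 7.54 and 7.77. It changed by 1.15 ± 0.17, or 2.23-fold (limma adjusted p = 0.0023, each probe its own row). With no background correction the ID2 probes changed by 0.54 and 0.61, so their difference was 0.07 in place of 0.38.

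ID3, the third ID protein induced by BMPs, has a single probe and had the largest change of the 7 genes where each is taken by its brightest probe, though a smaller one than the dimmer ID1 probe. It read 9.55, 9.98 and 9.58 on the control arrays and 11.25, 10.72 and 11.39 on the mimic arrays. Mimic replicate 2 was the lowest of its group and control replicate 2 the highest of its own, and they were still apart. The intensities were 876, 1096 and 927 in the control and 2610, 1736 and 2673 in the mimic group. The change was 1.41 ± 0.21, or 2.67-fold (limma adjusted p = 0.00231), which lies at the 98.9th percentile of the changes of all genes. ID1 and ID2 lay at the 95.4th and 94.5th percentiles. With no background correction ID3 still changed by 1.30.

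ID4, the ID protein known above all from neural and osteoblast differentiation, gave intensities of 104, 105 and 116 on the control arrays and 118, 100 and 117 on the mimic arrays. Its probe was not well above background on any array, so there is no fold change to give.

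Over the 6 arrays, each centred on its control mean, the root mean square distance between ID1 and ID2 on the log2 scale was 0.16, that between ID1 and ID3 was 0.44 and that between ID2 and ID3 was 0.50. Among all genes tested, those nearest to ID1 by this measure were AKAP8L (0.07), ZFAND2A (0.09) and ISM1 (0.09). Those nearest to ID2 were MICAL2 (0.04), SETD9 (0.05) and SPCS1 (0.05), and those nearest to ID3 were RBM38 (0.11), ABHD2 (0.13) and NDUFAF8 (0.13). With 6 arrays in 2 groups, likeness of this kind mostly ranks genes by the size of their difference between the groups.

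SMAD1, a receptor-activated SMAD of the BMP branch, was near the detection limit. Its brighter probe read 5.46, 5.59 and 5.40 on the control arrays and 5.84, 5.61 and 5.31 on the mimic arrays, and was detected on 2 arrays of each group. The groups overlapped. The change was 0.10 ± 0.16 (limma adjusted p = 0.68), with a 95% interval of -0.26 to 0.47 (this and later intervals from the fit with each probe as its own row). It turned to -0.02 without mimic replicate 1. The other SMAD1 probe was detected on no array.

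SMAD5, the closest relative of SMAD1 in the same branch, has 3 probes, of which 2 passed the filter. The brightest read 6.84, 6.52 and 6.86 on the control arrays and 6.77, 7.40 and 6.76 on the mimic arrays. Mimic replicate 2 stood above the other 5 arrays, which lay together. The change was 0.24 ± 0.20 (limma adjusted p = 0.436), with a 95% interval of -0.22 to 0.70, and was 0.03 without mimic replicate 2. The second probe, detected on 1 control and 2 mimic arrays, changed by 0.05 ± 0.24 (limma adjusted p = 0.908). SMAD9, the other receptor-activated SMAD of the BMP branch, was listed with 2 probes, and neither was detected on any array, at intensities of 107 to 154 in the control and 109 to 135 in the mimic group.

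SMAD6, the inhibitory SMAD of BMP signalling, read 6.81, 6.57 and 6.34 on the control arrays and 7.11, 6.81 and 7.42 on the mimic arrays. Every mimic array lay above every control array, but mimic replicate 2 and control replicate 1 were equal to 2 decimals. The intensities overlapped, at 230, 202 and 205 in the control and 260, 212 and 280 in the mimic group, so the groups are apart only after normalization. The change was 0.54 ± 0.19, or 1.46-fold, and did not pass (limma adjusted p = 0.0768). Its 95% interval was 0.10 to 0.98 before adjustment for many genes. Without mimic replicate 2 it was called higher (0.69, limma adjusted p = 0.0321). With no background correction the change was 0.27.

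BMPR2, the type II receptor devoted to BMPs, was the member that fell. Its brighter probe read 7.64, 7.48 and 8.29 on the control arrays and 6.93, 7.05 and 6.48 on the mimic arrays. Control replicate 3 was the highest and mimic replicate 3 the lowest, and the groups did not overlap. The intensities were 320, 283 and 451 against 244, 231 and 201. The change was -0.99 ± 0.24, a 1.98-fold lower signal (limma adjusted p = 0.0208). The call ended without mimic replicate 3 (-0.81, limma adjusted p = 0.0628), with the replicate number as a block (adjusted p = 0.055), when dim probes were kept in (adjusted p = 0.0508) and at an adjusted p under 0.01. The change was -0.74 without control replicate 3 and -0.58 with no background correction. The dimmer BMPR2 probe read 6.95, 6.82 and 7.20 on the control arrays and 6.73, 6.23 and 6.43 on the mimic arrays. Its groups were apart as well, but its change of -0.53 ± 0.17 did not pass (limma adjusted p = 0.0559, each probe its own row). BMPR1A, a type I receptor, was not analysed here.

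**Figure D2:**
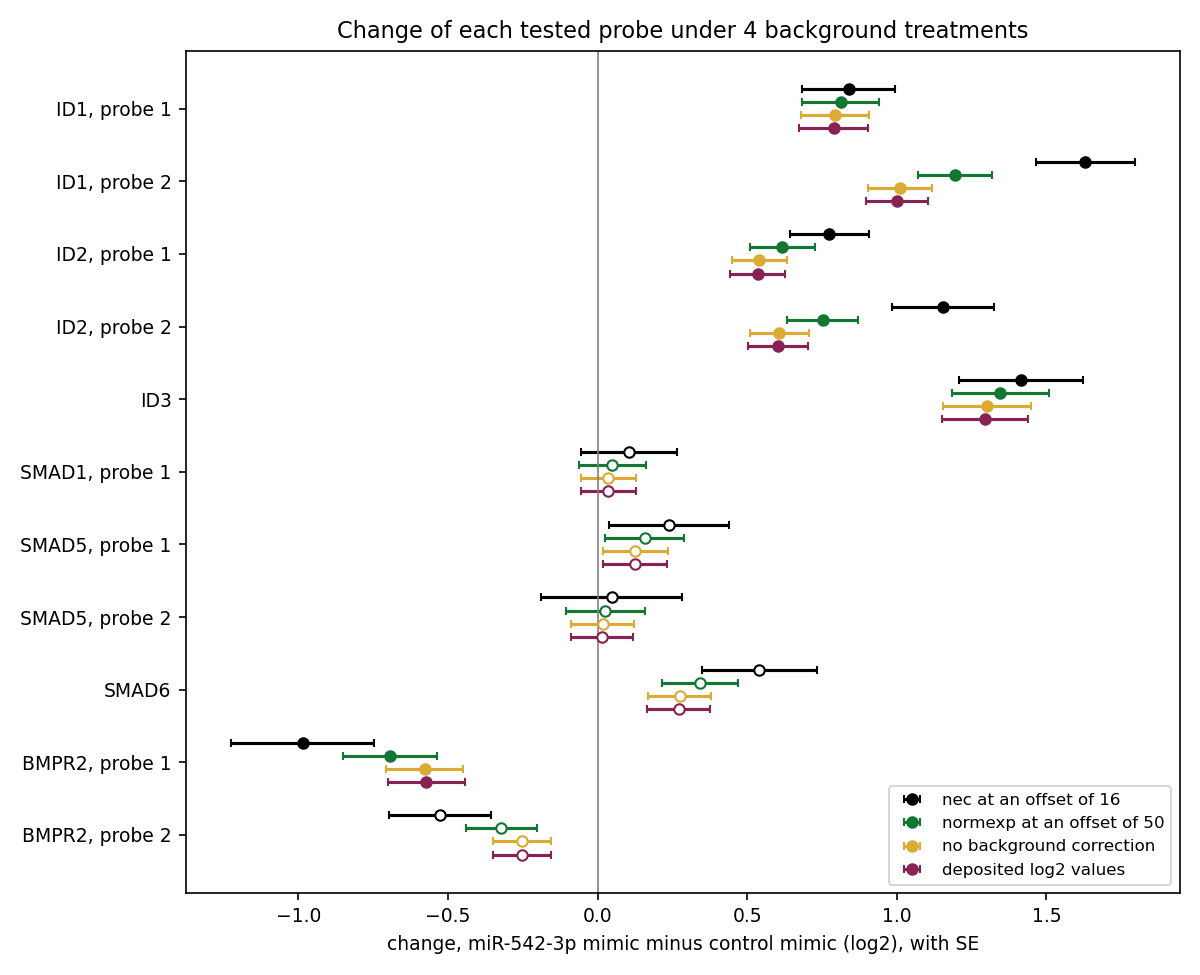
Change of each of the 11 probes that passed the filter (horizontal axis, mimic minus control on the log2 scale, with the SE from limma), as corrected with nec and under 3 other background treatments; filled points were called and open points were not. The ID probes lie above 0 and both BMPR2 probes below it under all 4 treatments, and the dimmer probes of ID1 and ID2 move most between treatments.

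**Figure D3:**
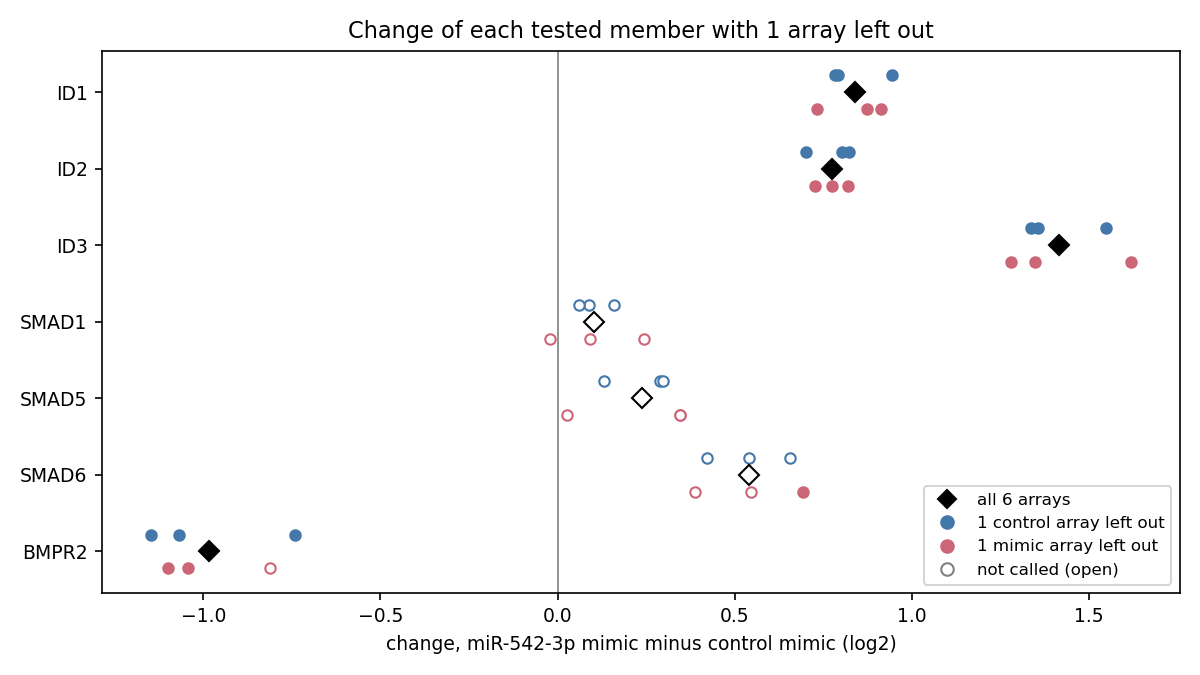
Change of each of the 7 tested genes (horizontal axis, mimic minus control on the log2 scale) with all 6 arrays (diamonds) and with 1 control (blue) or 1 mimic (red) array left out; filled symbols were called and open symbols were not. ID1, ID2 and ID3 were called in all 6 such fits, BMPR2 in 5, SMAD6 in 1, and SMAD1 and SMAD5 in none.

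Other genes of the pathway are given by lists drawn up from general knowledge, each beside the share of 26.4% called over all genes and the median change of 0.02. Of 4 BMP ligands tested, 1 was higher, none was lower and 3 did not pass; their median was 0.42. BMP2 was higher by 0.51 ± 0.12 (SE, limma adjusted p = 0.021), and lost its call without control replicate 1 (0.45) or mimic replicate 1 (0.54) and with no background correction (0.21). It was called in 7 of 12 other settings. BMP7 (0.52) and BMP5 (0.32) did not pass. BMP7 was called higher without mimic replicate 2 (0.69) and in 6 of 12 other settings, and BMP5 in 5 of 12, while with array weights 3 ligands were called higher. BMP4 changed by -0.37, and by -0.69 or -0.13 without control replicate 2 or 3. Another 8 ligands were detected on no array.

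Of 8 extracellular antagonists and modulators tested, 2 were higher, 1 was lower and 5 did not pass; the median was 0.14. FST, follistatin, which binds activins and some BMPs, was higher by 2.14 ± 0.14 (limma adjusted p = 9.79e-05), with readings of 9.67 to 9.77 in the control and 11.68 to 12.09 in the mimic group. Its dimmer probe changed by 1.56. CRIM1, a membrane protein that binds BMPs, was higher by 0.92 ± 0.13. NBL1, a secreted BMP antagonist, was lower by 0.64 ± 0.15 and lost its call without control replicate 3 (-0.63, limma adjusted p = 0.0503). Without mimic replicate 3, 2 of this list were lower. NOG, noggin, changed by 0.30 and FSTL1 by 0.37, and neither passed, but FSTL1 was called higher in 6 of 12 other settings, as with no background correction (limma adjusted p = 0.0147).

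Of 6 other BMP receptors and co-receptors tested, RGMA was higher, BAMBI was lower and 4 did not pass; the median was -0.05. RGMA, a BMP co-receptor, was higher by 1.95 ± 0.22 (limma adjusted p = 0.000773). BAMBI, a decoy receptor without a kinase and itself known as a BMP target, changed by -0.997 ± 0.128 (limma adjusted p = 0.00134), at 8.91 to 9.03 on the control and 7.79 to 8.07 on the mimic arrays. The type I receptor ACVR1 changed by 0.38 (limma adjusted p = 0.078) and was called higher in 4 of 12 other settings, and the type II receptor ACVR2A changed by -0.30 (limma adjusted p = 0.226). The remaining members of this list, BMPR1B (-0.21) and ENG (0.12), did not pass either. The dimmer BMPR1B probe went the other way, by 0.21, and was not called.

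Of 16 SMAD partners and regulators tested, 5 were higher, 2 were lower and 9 did not pass; the median was 0.33. TOB1, which binds BMP SMADs and lowers their activity, was higher by 1.23 ± 0.18, SKIL, a SMAD co-repressor, by 0.96 ± 0.16 (0.46 with no background correction), and PPM1A, a phosphatase reported to act on SMADs, by 0.81 ± 0.14 (0.49 with the mean of its probes). Of the 4 other PPM1A probes that passed the filter, 1 was called, at 1.37, and the others changed by 0.49, -0.12 and -0.11. STUB1, a ubiquitin ligase, was higher by 0.66, but its other probe changed by 0.24 (limma adjusted p = 0.361), and the call ended with the mean of its probes (0.45, limma adjusted p = 0.0571). SMAD4, the partner shared with the TGF-beta branch, was higher by 0.47 ± 0.14 (limma adjusted p = 0.0391). CTDSPL, a small phosphatase, was lower by 0.80 ± 0.13, and LEMD3, an inner nuclear membrane protein that binds SMADs, by 0.42. The other LEMD3 probe changed by -0.20 (limma adjusted p = 0.247, each probe its own row). With the mean of its probes LEMD3 was not called (-0.31, limma adjusted p = 0.0794). SMAD4 lost its call in every fit without 1 array (0.39 to 0.50) but that without mimic replicate 2. Of the fits without 1 array, LEMD3 was called only in that without control replicate 2. It changed by -0.43 or -0.35 without control replicate 1 or 3 and by -0.41, -0.45 or -0.40 without mimic replicate 1, 2 or 3. Among these fits where LEMD3 was not called, 1 gene of the list was lower in all but that without mimic replicate 2.

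The list of other BMP target genes leaves out SMAD6 and BAMBI, which are also known BMP targets but are counted with the members and the receptors. Of its 5 genes tested, 4 were detected in both groups. Of these, RUNX2, JUNB and MSX1 were higher and HEY1 was lower, with a median of 0.63. RUNX2, the osteoblast transcription factor, was higher by 0.97 ± 0.16 (limma adjusted p = 0.00409). JUNB, detected on 2 of 3 control arrays, was higher by 0.75, and by 0.27 with no background correction. ATOH8 was detected on no control array and was at least 1.14-fold higher, against the mean over control arrays of the lowest detected signal or its own, whichever was higher. It passed the filter through the mimic arrays, so it could enter the test only by being higher there. The median of the 5 genes was 0.74 with the fitted change of ATOH8 and 0.51 with ATOH8 at its bound. MSX1 changed by 0.51 ± 0.12, and was not called when control replicate 1 (0.48), control replicate 3 (0.49), mimic replicate 1 (0.49) or mimic replicate 3 (0.46) was left out. HEY1, a helix-loop-helix repressor also induced by Notch, was lower by 0.61 ± 0.15, and was not called when control replicate 1 (-0.61), control replicate 3 (-0.58) or mimic replicate 1 (-0.48) was left out, nor with no background correction (-0.22). ATOH8 did not enter the test when any mimic array was left out. Without mimic replicate 1 or 3, 2 of this list were called higher.

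Among the helix-loop-helix partners of ID proteins, 1 of 6 tested was higher, none was lower and 5 did not pass; the median was 0.13. TCF4, an E protein, was higher by 0.52 ± 0.14 (limma adjusted p = 0.0296). Its call ended without any 1 control array (0.50 to 0.54) or without mimic replicate 1 (0.49) or 3 (0.43). The other E proteins, TCF3 (-0.22) and TCF12 (0.12), did not pass. Of 6 regulators of ID transcription and ID protein turnover, none passed. These were CDC20 (-0.51), ATF3 (-0.49), FZR1 (-0.39), USP1 (-0.12), WDR48 (0.12) and EGR1 (0.16), where USP1 is the deubiquitinase known to stabilise ID proteins in osteosarcoma cells and ATF3 a known repressor of ID1. The dimmer USP1 probe changed by -0.40 and was not called either (limma adjusted p = 0.234, each probe its own row). CDC20 (limma adjusted p = 0.0524) was called lower without mimic replicate 2 (-0.66) and in 7 of 12 other settings. ATF3 was called lower in 3 of 12, one of them that with no background correction (-0.33, limma adjusted p = 0.0427).

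**Figure D4:**
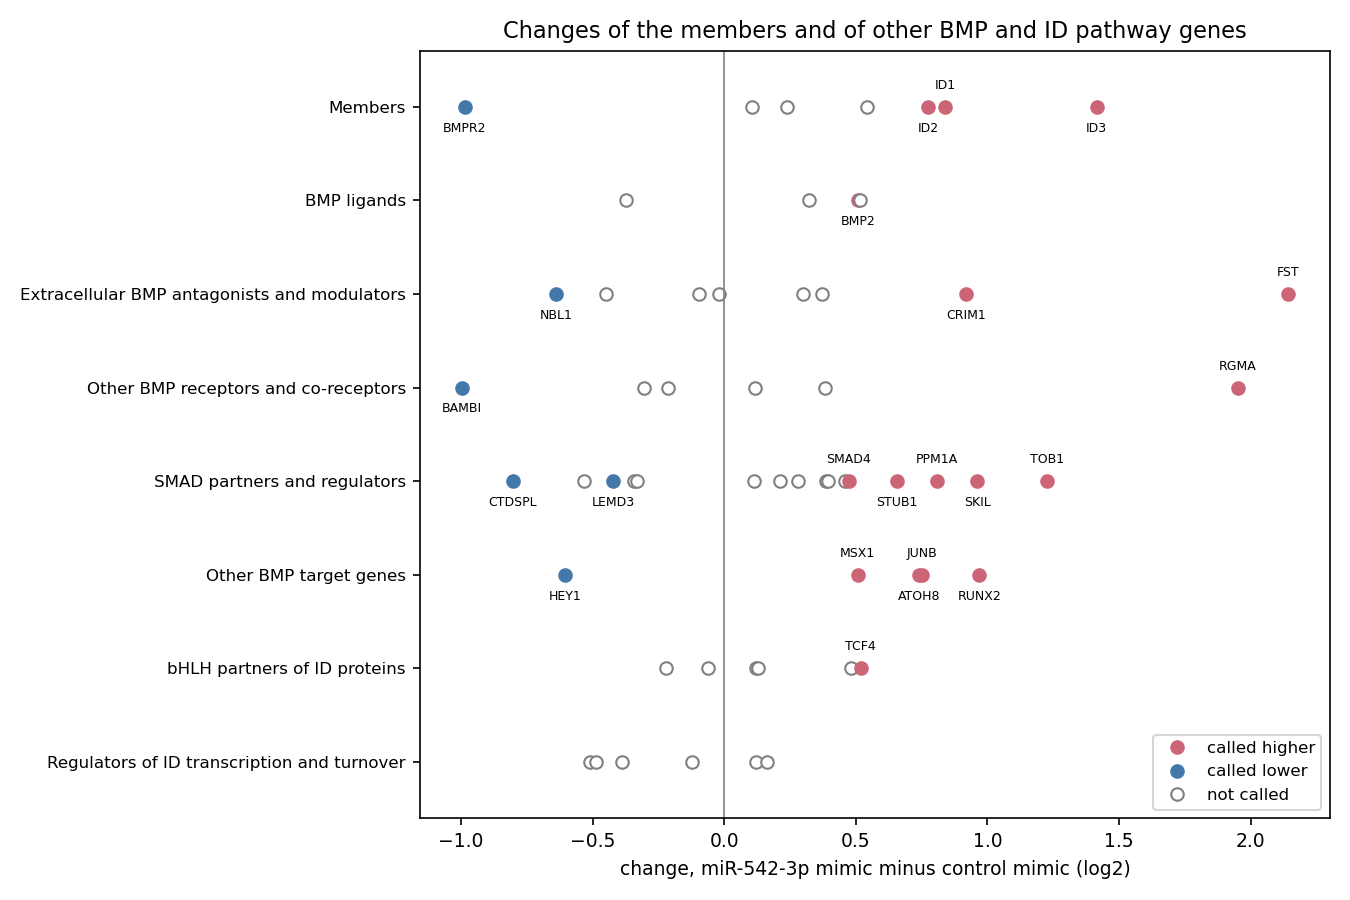
Change of each tested gene (horizontal axis, mimic minus control on the log2 scale) for the 7 tested members and for the other pathway lists; red points were called higher, blue points lower, and open points were not called. The ID genes and BMPR2 lie on opposite sides of 0, and every list other than the regulators of ID transcription and turnover holds at least 1 called gene.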

How the data were processed

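RNA of 6 U2OS samples was measured on Illumina bead arrays from biotin-labelled cRNA, per the labels' protocols. The authors deposited a non-normalized signal intensity for each probe with its detection p-value (column names per the file headers). A second deposited table holds log2 values by the authors, whose columns share nearly 1 distribution. No source used here gives the scanner software, any background subtraction or the slides, so no batch could be examined. The members and lists were chosen with earlier results of these data known.

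Intensities of all 47323 probes were background-corrected (limma 3.58.1, function nec, R 4.3.3) at an offset of 16, with the negative controls' mean and SD taken from the detection p-values, quantile-normalized and log2-transformed. The filter kept probes with a detection p under 0.05 on 3 or more of the 6 arrays. GEO's array annotation named the genes: 1 gene for 30113 probes, several for 8 and none listed for 17202. The brightest probe on average stood for each gene, and groups were compared with lmFit and eBayes without covariates, with Benjamini-Hochberg adjustment over all rows. A second fit kept each probe as its own row. The fit was tested on simulated data. All members are named, with up to 4 genes of each pathway list by smallest adjusted p, called genes needed for a count, BIRC5, and the 3 genes nearest to each called ID gene. Alternatives changed background, normalization, filter, probe rule, variance model, array weights, threshold, replicate block and input values, or left out 1 array.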

Additional observations from a re-analysis of the deposited data

How the results depend on the processing

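ID1, ID2 and ID3 were called higher in all 12 other settings and in all 6 fits that left out 1 array, with changes of 0.79 to 1.24, 0.54 to 0.97 and 1.30 to 1.56 in the settings. The 4 called members became 3 to 5 when 1 array was left out, the higher ones 3 to 4 and the lower ones 0 to 1. BMPR2 was not called, so that no member was lower (0), without the filter on dim probes (limma adjusted p = 0.0508), at an adjusted p under 0.01, and in the fit with a replicate block (BMPR2 adjusted p = 0.055; -0.99). SMAD1 changed by -0.022 (without mimic replicate 1) to 0.245 when 1 array was left out. Over all genes, 2832 were called, 1358 higher and 1474 lower. At an adjusted p under 0.01 these were 1430, 606 and 824. Leaving out 1 array gave 1859 to 2865, with 811 to 1335 higher and 1001 to 1530 lower. Whether the same replicate number in both groups paired the samples is not known. Deviations from the group means correlated at 0.02, 0.08 and 0.10 for the same number, and at -0.13 to 0.05 for different numbers. With 3 arrays per group, these values cannot decide it. With the replicate block ID1, ID2 and ID3 stayed called and LEMD3 and SMAD4 did not. MYOG was called there (at least 1.28-fold higher), but it was detected on mimic arrays alone and could enter the test only by being higher. Changes of dim probes, such as those of BMPR2, SMAD6 and the dimmer probes of ID1 and ID2, were smaller with no background correction than with nec. Probes near the detection limit, as for SMAD1, limit what can be seen of those genes.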
